A study of Mus musculus with 18 samples.

Results

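The fatty acid oxidation enzymes described here are Cpt1a, Cpt2, Acadvl, Acadl, Acadm, Hadha, Hadhb, Acaa2, Etfa and Etfb, 10 genes taken by name with every probe annotated to them. Of the 10 genes, 9 carried a probe, among 16593 genes named on the array, with 19 probes between them, and 8 genes with 17 probes were detected well enough to be tested. Hadha had no annotated probe, and its RNA level was not analysed here. The single Cpt1a probe and the dimmest of 3 Acadl probes were below detection on all 18 arrays.

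RNA levels were read with 18 arrays on MouseRef-8 beadchips from Illumina, on which labelled RNA binds probes carried on beads, in bone marrow cells of C57BL/6 mice. Controls were ERα f/f mice, whose floxed estrogen receptor gene is intact, and the second genotype, ERαΔLysM, also carried LysM-Cre, a Cre expressed in cells of the myeloid lineage. The floxed allele was thus shared by both genotypes, and no group had unfloxed alleles. Each genotype was taken as bone marrow macrophages (BMMs, which the labels call osteoclast progenitors) grown with 30 ng/ml M-CSF, as pre-osteoclasts after 2 days with 30 ng/ml RANKL added, and as mature osteoclasts once RANKL had been present for 4 days. Each of the 6 groups held 3 arrays. By the study's methods the mice were 2 to 3 months old and BMMs came from 3 mice per genotype. By its results text the cells on the arrays had been treated with 10 nM E2 for 4 h, which the labels do not mention. No comparison therefore sets E2 against vehicle. Nothing states that the 3 arrays of a group were separate mice, so p values measure the spread between these samples.

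Mitochondrial fatty acid oxidation breaks acyl-CoA down to acetyl-CoA, releasing electrons to the respiratory chain at each turn. Cpt1a loads long-chain fatty acids onto carnitine at the outer mitochondrial membrane and Cpt2 returns them to CoA inside. The acyl-CoA dehydrogenases Acadvl, Acadl and Acadm, which differ in the chain length they prefer, then make the first double bond and hand electrons to the electron transfer flavoprotein, made of Etfa and Etfb. The trifunctional protein of Hadha and Hadhb carries out the remaining reactions on long chains, and the thiolase Acaa2 cleaves off acetyl-CoA in the matrix. Osteoclasts are rich in mitochondria.

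The median scanner signal of the arrays ranged from 116 to 191, and 7 arrays with a median of 141 or less stood apart from 11 with 163 or more. Of the 7 dim arrays, 6 were ERαΔLysM and 1 was control. A fit without them therefore kept 1 ERαΔLysM array per stage, namely replicate 3 of BMMs, replicate 1 of pre-osteoclasts and replicate 2 of mature osteoclasts. The stage labels were checked with markers. Ctsk, the collagen-degrading protease of osteoclasts, stood at 7.71 ± 0.35 in BMMs, and pre-osteoclasts and mature osteoclasts reached 14.89 ± 0.09 and 14.71 ± 0.12 (log2 normalised intensity, mean ± SD, n = 6 arrays), and Calcr, the calcitonin receptor, was below detection in BMMs and measured 8.38 ± 0.29 in mature osteoclasts by its brightest probe. Acp5, tartrate-resistant acid phosphatase, stood at 5.15 ± 0.18 in BMMs, detected on 1 of 6 arrays, and at 10.30 ± 0.12 and 11.67 ± 0.19 in the later stages. Of 10 listed osteoclast markers, 9 were detected on all mature osteoclast arrays. Atp6v0d2, the remaining one, was below detection in all 6 groups by its brightest probe. Both Esr1 probes, which read the deleted receptor gene, were below detection on all arrays and so checked nothing about the genotype. In bulk cultures, fewer cells of a type and less RNA per cell cannot be told apart.

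All 8 tested enzymes rose between BMMs and mature osteoclasts, and all 17 of their probes did. Levels are given as log2 normalised intensity, where 1 unit is a doubling on the scanner's scale, and differences are averaged over the genotypes with p values from limma adjusted by Benjamini-Hochberg over all 13409 tested probes, with a threshold of 0.05. Of all tested probes, 34.8% passed in the higher direction in this comparison. The higher direction made up 51% of all probes that passed, and 62.4% when arrays were centred on the median of the tested probes in place of quantile normalization. The lowest mature osteoclast array lay above the highest BMM array for all 17 probes, against 25.4% of all tested probes. The median difference over the 8 genes was 1.25, beside 0.03 over all 9088 genes. By size of the difference the enzymes took positions 126 (Acaa2) to 2127 (Etfb) from the top of the 9088 genes.

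**Figure D1:**
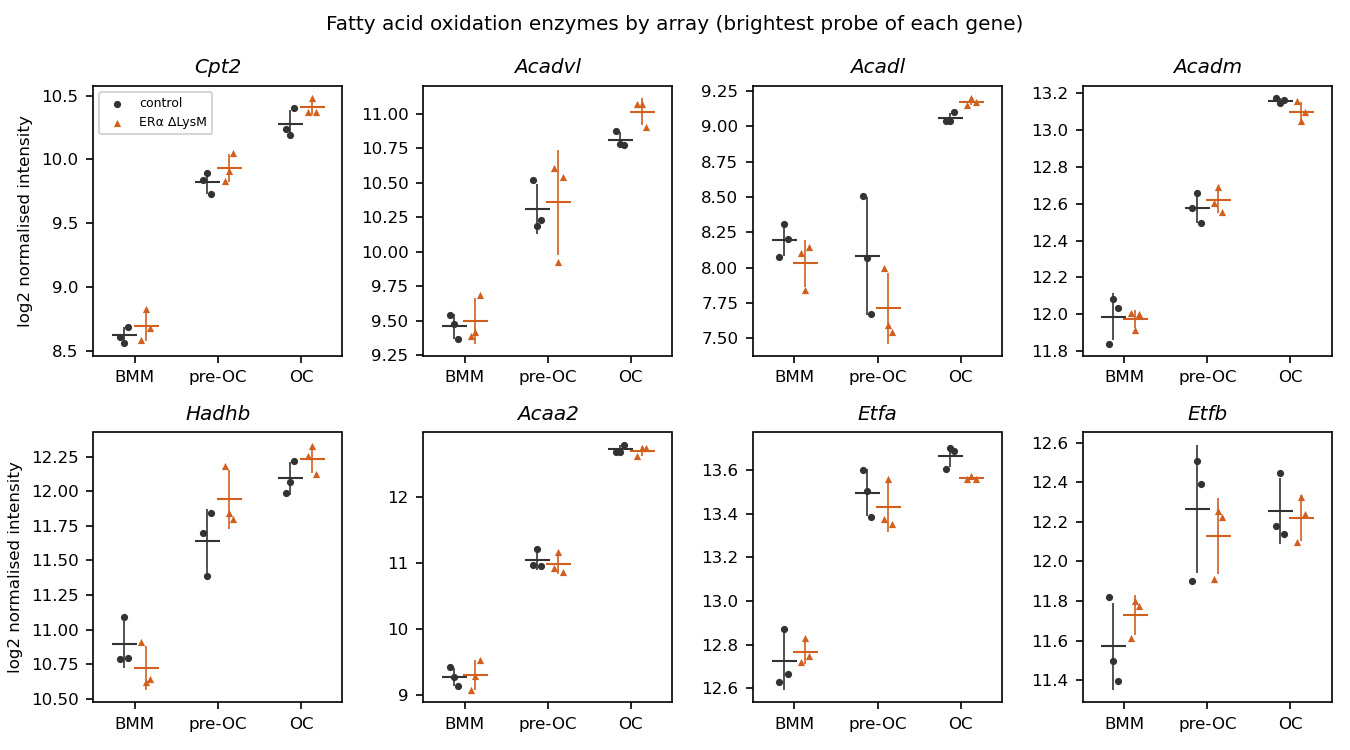
Log2 normalised intensity of each tested enzyme on each of the 18 arrays, by its brightest probe, with 1 panel per gene, each on its own scale. Points are arrays (circles control, triangles ERαΔLysM) and bars are the mean and SD of 3 arrays. All mature osteoclast arrays lie above all BMM arrays in every panel, while Acadl in pre-osteoclasts spans 7.54 to 8.50.

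Of the carnitine shuttle members, Cpt1a gave no usable level, at 4.50 to 4.84 on the 18 arrays without detection on any. This shows that the probe did not rise above background, not that the gene was silent. Cpt2 was measured with 1 probe. It ran from 8.56 to 8.82 in BMMs (median 8.64), from 9.72 to 10.05 in pre-osteoclasts (median 9.87) and from 10.19 to 10.48 in mature osteoclasts (median 10.37). The stages did not overlap, and most of the rise fell in the first 2 days with RANKL. Cpt2 was 3.22-fold higher in mature osteoclasts than in BMMs (log2 difference 1.69 ± 0.07, SE, adjusted p = 1.77e-12), with 1.22 gained by the pre-osteoclast stage (adjusted p = 2.38e-10) and 0.47 after it (adjusted p = 3.37e-05). The 250 bases before the annotated Cpt2 start (chr4:107923590-107923839, minus strand, RefSeq, GRCm38.p6) are shown because the first step of Cpt2 exceeded its second by more than that of any other member did, with matches to the GC box in capitals.
Cpt2: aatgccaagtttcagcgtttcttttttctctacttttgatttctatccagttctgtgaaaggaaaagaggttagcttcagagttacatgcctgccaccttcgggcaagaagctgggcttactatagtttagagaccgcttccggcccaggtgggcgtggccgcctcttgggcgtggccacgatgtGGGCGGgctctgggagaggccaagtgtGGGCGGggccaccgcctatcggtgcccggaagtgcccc

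The acyl-CoA dehydrogenases all rose over the course, with different shares of the rise in each step. Acadvl, which takes very long chains, ran from 9.37 to 9.69 in BMMs (median 9.45), from 9.92 to 10.61 in pre-osteoclasts (median 10.37) and from 10.77 to 11.07 in mature osteoclasts (median 10.89). The 3 stages did not overlap. It gained 0.85 ± 0.11 in the first step (adjusted p = 4.69e-06) and 0.58 ± 0.11 in the second (adjusted p = 0.000307), 2.70-fold in all. Acadm, which takes medium chains, was read by 2 probes. The brighter ran from 11.84 to 12.08 in BMMs (median 12.003), from 12.49 to 12.69 in pre-osteoclasts (median 12.59) and from 13.05 to 13.17 in mature osteoclasts (median 13.15). Acadm climbed in nearly equal steps of 0.62 (adjusted p = 3.84e-07) and 0.53 (adjusted p = 3.01e-06) by this probe, and of 0.86 and 0.87 by the other. The probes differed in the size of the full rise, 2.22-fold and 3.32-fold.

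Acadl, the long-chain dehydrogenase of rodents, was the one enzyme whose brightest probe did not rise in the first step. That probe ran from 7.84 to 8.31 in BMMs (median 8.12), from 7.54 to 8.50 in pre-osteoclasts (median 7.84) and from 9.04 to 9.20 in mature osteoclasts (median 9.12). BMM and pre-osteoclast arrays overlapped, and all mature osteoclast arrays stood above both. The difference in the first step was -0.22 ± 0.12 (adjusted p = 0.143), and it passed in the lower direction (-0.32, adjusted p = 0.0146) when replicate 1 of the control pre-osteoclasts, the highest of that stage at 8.50, was left out. Pre-osteoclast values of this probe split by array brightness. The dim arrays read 7.67 (control), 7.60 and 7.54 (both ERαΔLysM), and the others read 8.50, 8.07 (both control) and 7.998 (ERαΔLysM). The second Acadl probe rose in the first step, by 0.39 ± 0.09 (adjusted p = 0.00204), so the 2 probes disagreed there. They did not disagree in the second step, which brought 1.22 ± 0.12 (adjusted p = 2.80e-07) by the brighter probe and 1.05 ± 0.09 (adjusted p = 8.87e-08) by the other. The bases before the Acadl start (chr1:66863310-66863559, minus strand, same source) are shown because Acadl was the late member, and again the GC box is in capitals.
Acadl: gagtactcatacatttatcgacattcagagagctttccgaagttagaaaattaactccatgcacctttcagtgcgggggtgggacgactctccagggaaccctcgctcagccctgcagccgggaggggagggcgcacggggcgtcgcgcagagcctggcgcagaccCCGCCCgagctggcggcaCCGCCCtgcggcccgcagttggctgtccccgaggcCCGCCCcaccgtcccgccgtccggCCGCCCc

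Of the trifunctional protein only Hadhb, its thiolase subunit, could be read. Hadhb ran from 10.62 to 11.09 in BMMs (median 10.79), from 11.38 to 12.18 in pre-osteoclasts (median 11.82) and from 11.99 to 12.32 in mature osteoclasts (median 12.17). Pre-osteoclast arrays lay above all BMM arrays and overlapped the mature osteoclasts. The first step brought 0.98 ± 0.10 (adjusted p = 3.28e-07) and the second 0.37 ± 0.10 (adjusted p = 0.00520), 2.56-fold in all, and the second step missed the threshold without the 7 dim arrays (0.35, adjusted p = 0.0757). In the RefSeq annotation Hadha and Hadhb lie head to head, with 273 bases between their annotated starts, so the window printed for Hadhb (chr5:30155003-30155252, plus strand, same source) covers nearly all of the stretch between the genes and stands for the subunit without a probe as well. GC box matches are in capitals.
Hadhb: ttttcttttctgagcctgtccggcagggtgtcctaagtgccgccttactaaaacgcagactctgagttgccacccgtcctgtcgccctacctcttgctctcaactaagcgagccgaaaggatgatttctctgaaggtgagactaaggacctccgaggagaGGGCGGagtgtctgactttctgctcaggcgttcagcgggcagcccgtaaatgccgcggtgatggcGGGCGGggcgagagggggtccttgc

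Acaa2, the matrix thiolase, rose most of the members. Its brightest probe ran from 9.07 to 9.53 in BMMs (median 9.28), from 10.86 to 11.20 in pre-osteoclasts (median 10.95) and from 12.61 to 12.79 in mature osteoclasts (median 12.71). The 3 stages were far apart, with each step larger than the range of any stage. The rise was 10.7-fold from BMMs to mature osteoclasts (3.42 ± 0.09, adjusted p = 4.25e-15), in steps of 1.73 (adjusted p = 5.36e-11) and 1.70 (adjusted p = 1.84e-10). The 4 Acaa2 probes gave 9.44-fold to 10.7-fold, steps of 1.61 to 1.73 and of 1.63 to 1.70, and no overlap between stages. Over the 18 arrays the genes that followed Acaa2 most closely, members left out, were Serpind1 (Pearson r = 0.995), Smpd1 (0.994) and Hmg20b (0.992), and those that followed Hadhb were Mul1 (0.983), St8sia4 (0.982) and Sdhd (0.977). These correlations describe arrays that share 3 stages, and with so many genes moving between stages they carry no test.

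The electron transfer flavoprotein subunits rose early and by less. Etfa ran from 12.63 to 12.87 in BMMs (median 12.74), from 13.35 to 13.60 in pre-osteoclasts (median 13.45) and from 13.56 to 13.70 in mature osteoclasts (median 13.59) by its brightest probe. Etfb ran from 11.40 to 11.82 (median 11.70), from 11.90 to 12.51 (median 12.24) and from 12.10 to 12.45 (median 12.21) at these stages. For both genes the BMM arrays stood below all others, and the later stages overlapped. Etfa gained 0.72 ± 0.07 in the first step (adjusted p = 1.29e-07) and Etfb 0.55 ± 0.11 (adjusted p = 0.000591), the latter missing the threshold without the dim arrays (0.38, adjusted p = 0.134). From pre-osteoclasts to mature osteoclasts Etfa differed by 0.15 ± 0.07 (adjusted p = 0.0725) by its brightest probe, with 2 of its 4 probes passing (0.28 and 0.40), and Etfb by 0.04 ± 0.11 (95% interval -0.20 to 0.28, adjusted p = 0.793). The brightest Etfa probe passed this step when replicate 1 of the control pre-osteoclasts (0.18, adjusted p = 0.0472) or replicate 2 of the ERαΔLysM pre-osteoclasts (0.18, adjusted p = 0.0380) was left out. With median-centred arrays, Etfa (0.67, adjusted p = 1.69e-06) and Etfb (0.42, adjusted p = 0.0158) both passed this step in the higher direction. Both promoters are shown since the proteins form 1 heterodimer, Etfa from chr9:55512244-55512493 on the minus strand and Etfb from chr7:43443822-43444071 on the plus strand, with CCAAT boxes in capitals on either strand.
Etfa: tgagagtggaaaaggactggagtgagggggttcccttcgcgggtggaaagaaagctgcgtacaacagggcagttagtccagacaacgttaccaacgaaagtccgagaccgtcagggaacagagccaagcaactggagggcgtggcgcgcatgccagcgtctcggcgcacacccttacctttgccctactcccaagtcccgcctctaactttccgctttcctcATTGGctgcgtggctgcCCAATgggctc
Etfb: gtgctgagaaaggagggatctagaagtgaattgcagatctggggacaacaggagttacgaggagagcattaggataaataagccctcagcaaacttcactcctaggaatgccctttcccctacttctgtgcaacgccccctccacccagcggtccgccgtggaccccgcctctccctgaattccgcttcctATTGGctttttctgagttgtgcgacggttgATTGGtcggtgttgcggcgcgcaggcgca

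The 6 motifs fixed for the search were looked for on both strands of the 250 bases before the start in all 32851 annotated windows and in the 9 members that had one, Acaa2 having no window. The GC box, GGGCGG, stood in 5 of the 9 (Cpt1a, Cpt2, Acadl, Hadha and Hadhb), against 32.7% of all windows, with 4 matches before Acadl. The Hadha and Hadhb windows overlap, and the Hadha match is a site also counted for Hadhb, so these members are not independent. The CCAAT box, CCAAT, stood in 3 (Cpt1a, Etfa and Etfb), against 33.9% of all windows, with 2 matches each before Etfa and Etfb. The element of estrogen-related receptors, TNAAGGTCA (1.14% of all windows), the direct repeat of peroxisome proliferator-activated receptors, AGGTCA repeated with 1 base between (0.0335%), the estrogen response element, GGTCA and TGACC with 3 bases between (0.0639%), and the NRF1 site, GCGCA joined to TGCGC (0.782%), were found in 0 of the 9. The nuclear receptor motifs share the letters GGTCA. A match describes letters only, and a missing match says only that these letters are not in the window.

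Split by step, 7 of 8 genes and 16 of 17 probes rose from BMMs to pre-osteoclasts, against 30.1% of all tested probes, and 15 probes showed no overlap, against 18.7%. From pre-osteoclasts to mature osteoclasts 6 of 8 genes and 13 of 17 probes rose, against 27.8% (the higher direction made up 49% of all probes that passed, and 61.7% with median-centred arrays), and 11 probes showed no overlap, against 16.6%. No member fell in either step, against 25.9% and 28.9% of all tested probes. The test of the second step against the first, added after the values were seen, passed in the higher direction for Acadl, whose second step was larger by 1.43 ± 0.21 (adjusted p = 2.45e-05) and 0.66 ± 0.16 (adjusted p = 0.00273) by its 2 probes, against 24.4% of all tested probes past the threshold in this direction. The second step was smaller for Cpt2 (by a log2 difference of -0.75, adjusted p = 8.45e-05), Hadhb (-0.61, adjusted p = 0.00813), Etfa (-0.57, adjusted p = 0.000791) and Etfb (-0.51, adjusted p = 0.0408), against 27.8% of all tested probes. The other Etfa probes gave -0.38 (adjusted p = 0.0533, not passing), -0.63 (adjusted p = 0.00150) and -0.28 (adjusted p = 0.0382). The other Etfb probe gave -0.55 (adjusted p = 0.0114). With arrays centred on the median of the tested probes the values for Hadhb (-0.17), Etfa (-0.021) and Etfb (-0.12) no longer passed, and Acaa2 (0.44, adjusted p = 0.0457) and Acadm (0.35, adjusted p = 0.0438), at -0.029 and -0.085 otherwise, passed in the higher direction. Etfb also missed the threshold when any of 11 of the 18 arrays was left out, and without the 7 dim arrays (-0.15, adjusted p = 0.755). Acadvl was at -0.28 (adjusted p = 0.248), and passed at -0.49 (adjusted p = 0.0136) when replicate 2 of the ERαΔLysM pre-osteoclasts, its lowest array of that stage at 9.92, was left out.

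**Figure D2:**
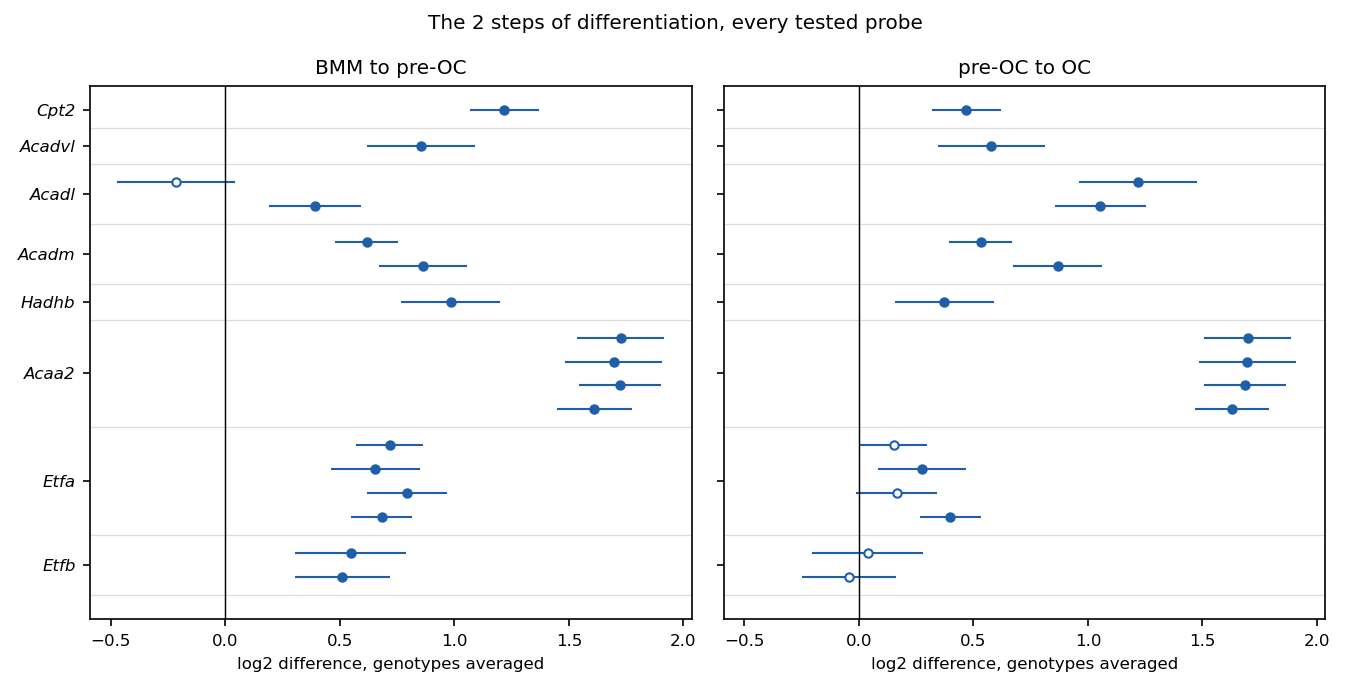
Log2 difference of each tested probe from BMMs to pre-osteoclasts (left) and from pre-osteoclasts to mature osteoclasts (right), averaged over genotypes, with 95% intervals from limma. Filled points passed the adjusted threshold and open points did not. Acadl rose mainly in the second step, Acaa2 by 1.73 and 1.70 (its second step larger by 0.44 with median-centred arrays), and the Etfb probes lay at 0.04 and -0.04 in the second step (at 0.42 for the brighter probe with median-centred arrays).

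Markers of other cells moved with the stages. The summed linear level of 5 macrophage markers fell from 28810 to 31340 in BMMs to 2186 to 2481 in mature osteoclasts, where Cx3cr1 and Irf8 were below detection. The summed level of 11 neutrophil markers fell from 14490 to 23730 in BMMs to 2937 to 4887 in mature osteoclasts, where Cebpe, Mpo and Prtn3 were below detection. Mmp8, also among these markers, was below detection at every stage. B cell, T cell, stromal and erythroid markers were at or near background at all stages. The part of changing cell mixtures in the rise of the enzymes was not tested.

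The genotypes did not differ detectably in any member at any stage. Between ERαΔLysM and control, 0 of 8 genes and 0 of 17 probes passed by limma at the BMM, pre-osteoclast or mature osteoclast stage, against 0.321%, 0.0746% and 0.172% of all tested probes in either direction. At an unadjusted p under 0.05 the counts were 1, 2 and 0 of 17 probes, against 13.4%, 8.15% and 7.03% of all tested probes. By the brightest probes the differences lay between -0.17 and 0.16 in BMMs, between -0.37 and 0.30 in pre-osteoclasts and between -0.10 and 0.21 in mature osteoclasts, and the 95% intervals of the 8 genes reached at most 1.44-fold, 1.66-fold and 1.45-fold in either direction. Values of the genotypes did not overlap for 3 probes in BMMs, for 1 at the pre-osteoclast stage and for 5 at the mature stage, against 23.6%, 10.2% and 14.2% of all tested probes.

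Among single members, the lowest adjusted p belonged to 1 of the 4 Acaa2 probes in BMMs (0.42 ± 0.12, adjusted p = 0.154), while its brightest probe differed by 0.03 ± 0.13 and the remaining ones by 0.27 and 0.16. Genotypes did not overlap on 2 of the 4 probes, where ERαΔLysM BMMs were higher. On the brightest probe Acaa2 measured 9.41, 9.27 and 9.13 in control BMMs and 9.07, 9.29 and 9.53 in ERαΔLysM BMMs. On this probe the ranges overlap. Hadhb in pre-osteoclasts measured 11.70, 11.38 and 11.84 in controls and 12.18, 11.84 and 11.80 in ERαΔLysM cells, a difference of 0.30 ± 0.14 (adjusted p = 0.613). It was 0.64 (adjusted p = 0.645) without the dim arrays, which left 1 ERαΔLysM array at this stage, assumed to vary like the other groups, and 0.17 to 0.40 when 1 array was left out, lowest without replicate 2 of the controls. Acadl in pre-osteoclasts measured 8.50, 8.07 and 7.67 in controls and 7.998, 7.60 and 7.54 in ERαΔLysM cells by its brighter probe (-0.37 ± 0.17, adjusted p = 0.596), and the difference ranged from -0.58 without replicate 3 to -0.16 without replicate 1 of the controls. By the other probe it was 7.37, 7.42 and 7.58 against 7.77, 7.97 and 7.81 (0.39 ± 0.13, adjusted p = 0.456), so the probes of this gene pointed in opposite directions. The summed level of neutrophil markers was 14490 to 15970 in control and 21260 to 23730 in ERαΔLysM BMMs. In pre-osteoclasts it was 5642 to 12620 against 9584 to 14160, where the genotypes overlapped, and in mature osteoclasts 2937 to 3964 against 4223 to 4887. The part of neutrophil markers in the genotype values was not tested.

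**Figure D3:**
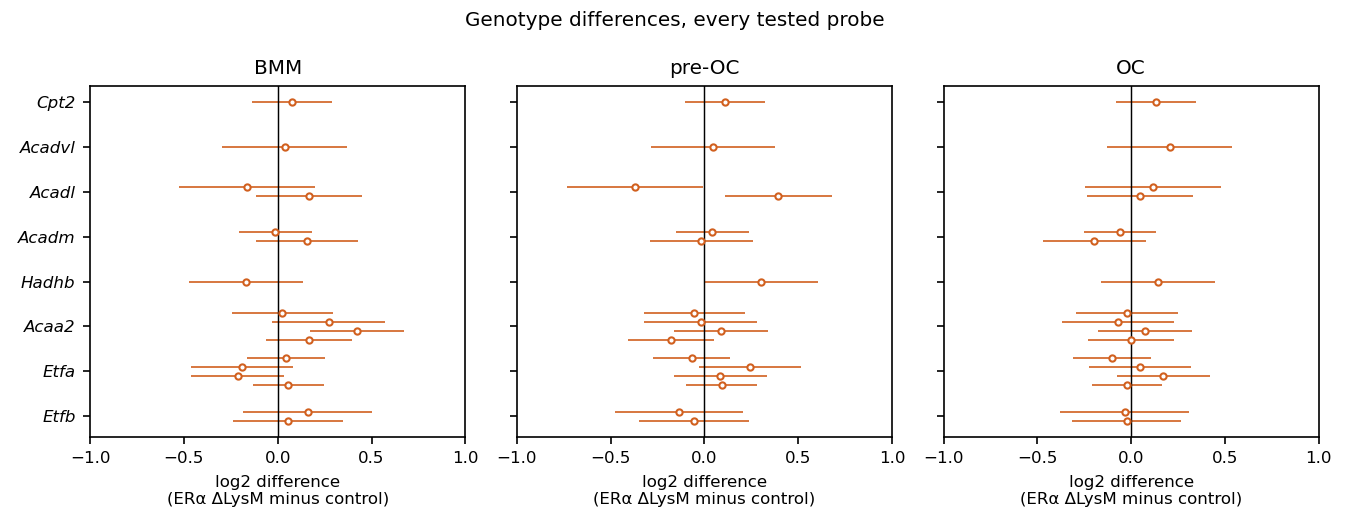
Log2 difference between ERαΔLysM and control for each tested probe in BMMs, pre-osteoclasts (pre-OC) and mature osteoclasts (OC), with 95% intervals from limma for 3 arrays against 3. No probe passed the adjusted threshold, and in pre-osteoclasts the Acadl probes lie on opposite sides of 0, at -0.37 and 0.39.

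The rise over the stages was seen in each genotype on its own. From BMMs to mature osteoclasts 8 of 8 genes passed in controls and 8 of 8 in ERαΔLysM cells, against 30.3% and 29.1% of all tested probes in the higher direction. Acaa2 rose by 3.45 in controls and 3.40 in ERαΔLysM cells, Cpt2 by 1.66 and 1.71, Hadhb by 1.20 and 1.51, and Etfb by 0.68 and 0.49. In the first step 7 genes passed in controls and 6 in ERαΔLysM cells (against 24.0% and 24.8%), and in the second 6 and 5 (against 21.3% and 21.4%). The difference between these rises, tested as the interaction of genotype and stage, passed for 0 of 8 genes in any of 3 contrasts by limma, against 0.0522%, 0.0597% and 0.00746% of all tested probes. At an unadjusted p under 0.05 the interaction counts were 3, 1 and 0 of 17 probes, against 9.67%, 10.2% and 4.41% of all tested probes, and the lowest p among brightest probes was that of Hadhb in the first step (0.47, adjusted p = 0.478).

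Other genes of the pathway were read from 7 lists, each gene by its brightest probe. Over all 9088 tested genes, 35.0% rose and 34.3% fell from BMMs to mature osteoclasts, and each list's counts are read beside these shares. Of 20 other mitochondrial beta-oxidation enzymes 19 were tested, and 15 rose and 0 fell from BMMs to mature osteoclasts, with a median log2 difference of 1.24. Acad10, of the acyl-CoA dehydrogenase family, was below detection in all BMMs by 1 of its 2 probes and at least 33.8-fold higher in mature osteoclasts (adjusted p = 1.72e-18). Acads, which takes short chains, rose 4.45-fold and Hsd17b10 3.72-fold. Etfdh, which passes electrons from the flavoprotein to ubiquinone, rose 3.54-fold (1.82 ± 0.08, adjusted p = 5.42e-12), from 9.34 ± 0.17 to 11.17 ± 0.05. Echs1, the enoyl-CoA hydratase of short chains, rose 2.90-fold. Hadh, the short-chain hydroxyacyl dehydrogenase, was detected on 3 of 6 BMM arrays and on 0 of 6 mature osteoclast arrays, so no fold is given.

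In the list of the carnitine shuttle and fatty acid activation 4 of 8 tested genes rose and 3 fell. These counts depended on the probe: Acsl4 counted as lower (-0.24) while its other 2 probes passed higher (0.39 and 0.52), and Slc22a5 did not pass (0.19) while its other 2 probes did (0.27 and 2.07). Slc25a20, the carrier that exchanges acylcarnitine for carnitine across the inner membrane, rose 1.78-fold (0.83 ± 0.07, adjusted p = 2.28e-08), and Crat and Acss2 rose by 1.52 and 2.07 on the log2 scale. Acss1, the mitochondrial acetyl-CoA synthetase, fell by 2.06 on the log2 scale. Of 11 tested genes of fatty acid uptake and binding 4 rose and 4 fell, close to the shares over all genes, and probes of Dbi (-0.33 and 0.95) and Mgll (0.46 and -0.46) passed in opposite directions. Fabp3, a fatty acid binding protein, was below detection in mature osteoclasts and at least 3.00-fold lower there than in BMMs (adjusted p = 5.66e-13), Lipa, the lysosomal acid lipase, fell by 1.39, and Pnpla2, the triglyceride lipase ATGL, rose by 1.15. Of 8 tested genes of peroxisomal oxidation 4 rose and 3 fell. Abcd2, a fatty acid transporter of the peroxisomal membrane, was below detection in mature osteoclasts and at least 1.17-fold lower there than in BMMs, where 5 of 6 arrays detected it (adjusted p = 1.79e-06). Abcd3, another such transporter, and the peroxisomal thiolase Acaa1a rose by 0.76 and 0.70 on the log2 scale.

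Among regulators 5 of 8 tested genes rose and 3 fell. Ppargc1b, the coactivator PGC-1β, rose 25.1-fold (4.65 ± 0.08, adjusted p = 3.62e-17), of which 4.30 came in the first step. Sirt3, the mitochondrial deacetylase, rose by 2.27, and Pparg, the nuclear receptor PPARγ, fell by 3.46 on the log2 scale, with detection on 2 of 6 mature osteoclast arrays. Of 6 tested PPAR target genes, Acadm and Slc25a20 being listed here too, 4 rose and 2 fell, and Angptl4, detected on 4 of 6 mature osteoclast arrays, and Plin2 fell by 1.68 and 1.61. Pdk4 was not detected well enough to be tested and Ucp2 had no annotated probe. Of 13 tested genes of fatty acid synthesis 8 rose and 4 fell, from Fads1 at -4.21 and Elovl6 at -1.90 to Scd2 at 2.29. Of these, Elovl6 was detected on 2 of 6 mature osteoclast arrays and Scd2 on 3 of 6 BMM arrays.

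**Figure D4:**
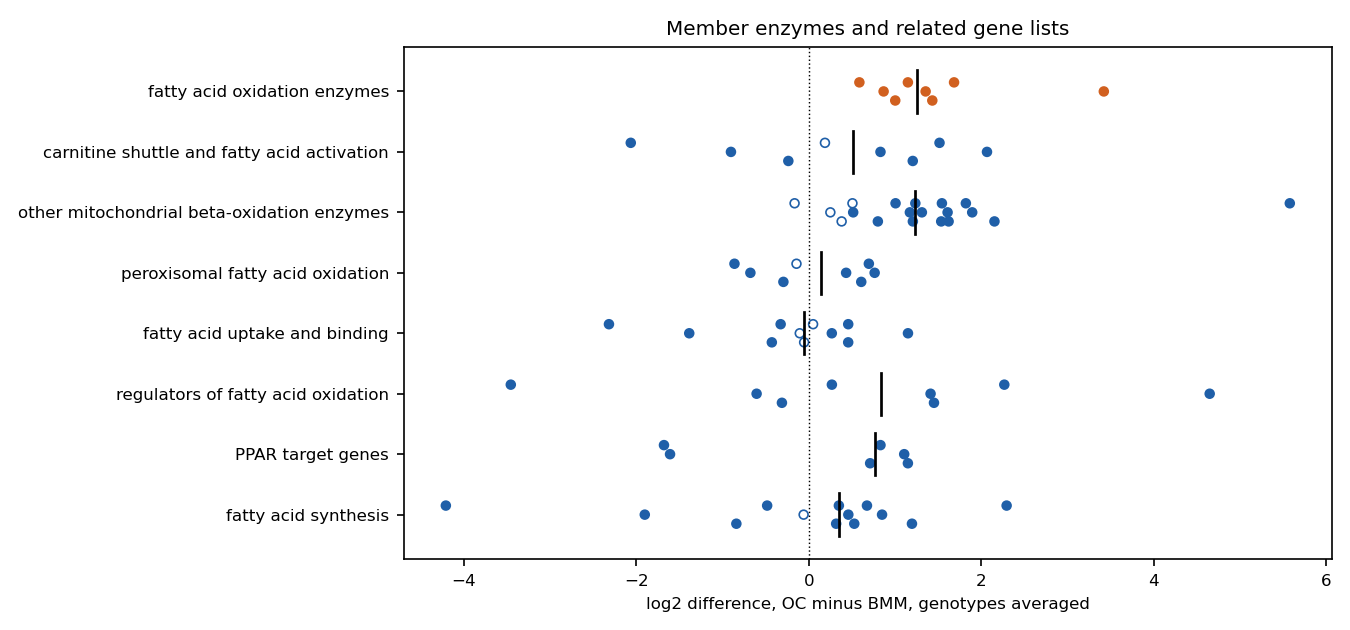
Log2 difference between mature osteoclasts and BMMs, averaged over genotypes, for each tested gene of the member enzymes and of 7 related lists by its brightest probe. Filled points passed the adjusted threshold, open points did not, and the black line is the median of a list. The member enzymes (median 1.25) and the other mitochondrial enzymes (1.24) hold 0 genes that passed in the lower direction. The open point left of 0 among the other mitochondrial enzymes is Hadh. The remaining lists hold genes that passed in either direction.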

How the data were processed

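The authors hybridized total RNA to the beadchips and deposited scanner intensity values without background subtraction or normalization, with a detection p-value per probe from the negative control beads. They also deposited normalized log2 values, for which the study's methods name lumi. Of 26529 features, 832 (3.14%) without a probe ID were left out. limma's neqc (version 3.58.1, R 4.3.3, offset 16) was run on the intensity values for background correction, quantile normalization and the log2 scale, and differed from the authors' log2 values of the member probes by at most 0.00424. Probes detected at p under 0.05 on 3 or more arrays, 13409 in number, entered 1 limma fit (lmFit and eBayes) with a mean per genotype and stage over 18 arrays, 12 residual and 3.69 prior degrees of freedom, and Benjamini-Hochberg adjustment. Where a gene had several probes, the brightest stood for it. The array number limits the precision, and genotype differences had a standard error of 0.172 at the median over all probes.

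The members and lists were chosen with earlier results of these data known, and symbols came from the platform annotation, which is that of version 2 of the array while the methods name version 1. Promoters came from RefSeq (GRCm38.p6), with 9 of 10 members matched, and motifs were searched in the 250 bases before the start. All members were named, with up to 3 genes of each list by size of the change and fixed further genes (Slc25a20, Etfdh, Hadh, Echs1, Ppargc1b, Pdk4 and Ucp2). The genes most like Acaa2 and Hadhb were chosen after Cpt1a and Hadha proved unmeasured. For a probe below detection on every array of a stage, the fold is a bound against each array's lowest detected level. On simulated genotype differences in BMMs over 13409 probes, the test recovered 83% of changes of 1 log2 unit and 18% of changes of 0.5, and 4.72% of its 106 calls were false. The simulated noise was independent between probes and held no array effects, while 6 of the 7 dim arrays were ERαΔLysM. These rates therefore do not cover such array differences. Figures were drawn with matplotlib 3.10.9 (Python 3.11.15, pandas 2.3.3).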

Additional observations from a re-analysis of the deposited data

How the results depend on the processing

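The rise of all 8 enzymes from BMMs to mature osteoclasts passed under all 30 alternatives, with log2 differences of 0.53 to 3.73 and adjusted p values of at most 0.0161, and the genotype differences passed under none of 31 (lowest adjusted p 0.165, by the gene's representative probe or the mean of its probes). The alternative with the authors' log2 values nearly repeated the main analysis, since those values differed from the main ones by at most 0.028 over all probes. Counts of members past the threshold stayed within 1.5 times the reported ones under every alternative, 6 to 8 in the first step, 8 over the course, 5 to 8 in the second step, 4 or 5 for the step comparison and 0 for genotypes and interactions. Centring arrays on the median of the tested probes moved the median difference of all tested probes over the course from 0.04 to 0.24 and that of the second step from 0.00030 to 0.15, and the members moved unequally (in the second step Etfa from 0.15 to 0.67, Acadl from 1.22 to 1.24). The cause was not tested.

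Signs turned as follows. With centred arrays, BMM genotype differences turned for Acadvl (-0.057), Acaa2 (-0.058), Etfa (-0.15) and Etfb (-0.047), pre-osteoclast ones for Acadvl (-0.0052) and Acadm (-0.046), and step comparisons for Acadvl (0.017), Acadm (0.35) and Acaa2 (0.44). Without background correction the step comparison of Acaa2 turned (0.10). With the mean of a gene's probes, Acadl in the first step (0.087) and Etfb in the second (-0.0017) turned, as did genotype differences of Acadl (0.0015), Acadm (0.072) and Etfa (-0.077) in BMMs, Acadl (0.012) and Etfa (0.088) in pre-osteoclasts and Etfa (0.023) in mature osteoclasts. Without the 7 dim arrays, an alternative added after seeing the data, each stage kept 1 ERαΔLysM array. In this alternative genotype differences turned for Acadm in BMMs (0.016), Cpt2 (-0.033) and Acadm (-0.015) in pre-osteoclasts and Acaa2 (0.020) and Etfb (0.071) in mature osteoclasts. The step comparison of Acaa2 turned too (0.12). A term for array brightness, also added, turned Acadl in BMMs (0.0048) and Acaa2 in mature osteoclasts (0.015), and took the step comparison of Etfb to -0.48 (adjusted p = 0.0615).

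The second step of Etfa also passed without background correction (0.15), with a trended robust prior (0.15) and with the mean of its probes (0.25), and the step comparison of Etfb no longer passed without a filter (-0.51).

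Leaving out 1 array at a time turned signs of values near 0. The genotype ranges were -0.090 to 0.14 (Acaa2), -0.085 to 0.036 (Acadm), -0.057 to 0.093 (Acadvl) and -0.0032 to 0.12 (Etfa) in BMMs, -0.15 to 0.028 (Acaa2), -0.00070 to 0.083 (Acadm) and -0.080 to 0.26 (Acadvl) in pre-osteoclasts, and -0.044 to 0.020 (Acaa2) and -0.094 to 0.062 (Etfb) in mature osteoclasts. The step comparison of Acaa2 ranged from -0.090 to 0.062 and that of Etfb from -0.69 to -0.39, and the second step of Etfb from -0.053 to 0.10.

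Same-numbered arrays of different stages within a genotype correlated at -0.23 to 0.11 in their deviations, with 1 of 18 pairs over 0.1. Same-numbered arrays of different genotypes correlated at -0.18 to 0.35, with 2 of 27 over 0.1. The highest value, 0.35, was that of replicate 1 of the control and ERαΔLysM pre-osteoclasts. Neither block below models an effect shared by the genotypes at 1 stage only. A fixed replicate block left 7, 8 and 6 members past the threshold in the first step, over the course and in the second step, and 0 for genotype. A random replicate block within genotype (consensus correlation -0.0099) gave the same counts.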
